A study of Mus musculus with 3 samples.

Results

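The tRNA that reads glycine codons with the anticodon GCC, written Gly-GCC, was followed here over its gene copies and over the lengths of the small RNA fragments cut from it. Its members were the genes whose name begins with tRNA-Gly-GCC in a deposited table of tRNA gene counts and in the table of fragment lengths deposited for each library. The rule found 15 of 446 tRNA genes, and all 15 had fragment reads in all 3 libraries. The samples were epididymis, the duct in which sperm mature, from Alkbh3-/- mice (2 libraries) and wild type mice (1 library). The labels name no treatment, and they give neither age, nor the kind of deletion, nor the number of animals behind a library. RNA of 15 to 50 nt was cut from a denaturing gel, so the reads describe fragments and not intact tRNA.

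Fragments that end in the anticodon loop are made when ribonucleases such as angiogenin cut a mature tRNA. Gly-GCC and Glu-CTC are known as leading sources of such 5′ fragments in the epididymis, and sperm take them up while they pass through the duct. ALKBH3 removes methyl groups from 1-methyladenosine and 3-methylcytosine in nucleic acids, tRNA included, and the study compared the small RNA of epididymis with and without it.

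The 5 RNA classes of the deposited class table summed to 15411457 and 21169908 reads in Alkbh3-/- libraries A and B, against 15107055 in wild type, and levels are given in reads per 1000000 of that sum (RPM). The names of the 2 Alkbh3-/- columns cannot be tied to the numbered samples, so A and B follow the order of the deposited columns. Only the wild type column name begins with B6, so a shared strain background cannot be assumed. The genotypes rest on the labels alone, since Alkbh3 mRNA was not analysed here, and the tables used hold no marker genes to check the tissue against. With 1 wild type library, each p-value assumes that wild type varies as much as the 2 Alkbh3-/- libraries do. That spread between libraries may be technical. The tests also pool variance over all features. With 1 residual degree of freedom, a very small p-value therefore rests largely on the spread of other features, not on replicates of Gly-GCC. Reads that match several copies cannot be told apart by their counts, so copies of one set are not independent measurements.

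Gly-GCC was the most abundant of the tRNA isoacceptors (genes that share an anticodon), and its summed reads fell in Alkbh3-/- epididymis. It had 1972564 and 2810824 reads in Alkbh3-/- libraries A and B, against 2864610 reads in wild type. This was 127993 and 132775 RPM in the Alkbh3-/- libraries, against 189621 RPM in wild type, and both Alkbh3-/- libraries lay below wild type. In whole tissue, fewer cells that hold these fragments and less of them per cell cannot be told apart. The log2 fold change was -0.54 (SE 0.05, adjusted p = 2.2e-12, edgeR's quasi-likelihood test over 46 isoacceptors), in a comparison in which 17.4% of isoacceptors were called lower and the median log2 fold change was -0.26. Relative to that median Gly-GCC stood at -0.28. With tRNA reads alone as library size the median moved to 0.01 and Gly-GCC had -0.27, again -0.28 relative to the median. A change of library size shifts all fold changes nearly alike, so this distance stays nearly fixed and is no further check. DESeq2, with its own size factors, gave -0.22 (adjusted p = 0.69) and did not call it.

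Glu-CTC, the second most abundant isoacceptor and the other leading source of 5′ fragments, rose, with 54516 and 57504 RPM in Alkbh3-/- libraries A and B, against 30918 RPM in wild type (log2 fold change 0.86, SE 0.13, edgeR adjusted p = 1.0e-06). Per Glu-CTC read, a measure free of library size, Gly-GCC had 2.35 and 2.31 reads in the Alkbh3-/- libraries, against 6.13 in wild type. The Alkbh3-/- mean was 0.380 of the wild type ratio (SD 0.00448, n = 2). Here and below, an SD is that of the 2 Alkbh3-/- libraries only, since the spread of wild type is unknown with 1 library. The same ratio in the fragment tables was 2.40 and 2.34 in the Alkbh3-/- libraries, against 6.23 in wild type. With 2 libraries against 1, an exact permutation test cannot give a one-sided p below 0.333, so this ratio and the shares of lengths that follow are given without a test.

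Of the 4 glycine isoacceptors Gly-GCC was called lower and the other 3 did not pass the test. Gly-CCC was nevertheless below wild type in both Alkbh3-/- libraries, at 12647 and 13115 RPM, where wild type had 19754 RPM. On the log2 scale it stood at -0.61, at least as far below 0 as Gly-GCC, but with a wider SE of 0.26 (adjusted p = 0.086 in the edgeR test). Gly-ACC stood at -0.35 (SE 0.55) and Gly-TCC at -0.18 (SE 0.36). Over all 4, with Gly-GCC among them, the median was -0.44 in log2 fold change, beside -0.26 over all 46. Of 7 isoacceptors known as parents of 5′ fragments cut in the anticodon loop (Gly-GCC, Gly-CCC, Glu-CTC, Glu-TTC, Val-CAC, Lys-CTT and His-GTG), 1 was called higher and 1 lower, with a median of -0.37, and over all isoacceptors 6.52% were called higher. Of the 3 tRNAs that carry a 5-methylcytosine set by DNMT2, whose methylation protects its targets from cleavage, Gly-GCC was called lower, while Asp-GTC had -0.08 (SE 0.74) and Val-AAC -0.26 (SE 0.67).

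The 15 copies are named by a set number and a locus number, and in the usual naming of tRNA genes copies of one set share their mature sequence. On mm10, 14 of the 15 have a RefSeq tRNA at the same chromosome, start and end, and none overlaps an exon of GENCODE M21. Each spans 71 nt except Gly-GCC-6-1, which spans 72 nt and has no such RefSeq match. The 3 copies of set 1 and Gly-GCC-2-1 lie within 36962 nt on chromosome 1, from Gly-GCC-2-1 at chr1:171044985-171045055 to Gly-GCC-1-3 at chr1:171081876-171081946, all on the plus strand and outside GENCODE genes. Gly-GCC-2-7 (chr13:21710580-21710650, plus strand) and Gly-GCC-5-1 (chr4:133114496-133114566, minus strand) are also intergenic. Gly-GCC-4-1 (chr8:111062561-111062631, plus strand) lies in an intron of Clec18a, and Gly-GCC-6-1 (chr7:26460817-26460888, minus strand) in an intron of Nlrp4a, both on the strand opposite to the host gene. Gly-GCC-2-4 and Gly-GCC-2-5 lie 622 nt apart in introns of Vac14, a scaffold of the complex that makes a phosphoinositide lipid, and Gly-GCC-2-3 lies in an intron of Trim2, a ubiquitin ligase.

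The copies fell into 2 levels. The 10 copies of sets 2, 3 and 4 held 97.9% and 97.7% of the Gly-GCC gene counts in Alkbh3-/- libraries A and B, against 98.2% in wild type. They were nearly level with each other, at 11750 to 13261 RPM in library A and 12206 to 13696 RPM in library B, against 17366 to 19822 RPM in wild type. The ranges run over copies that are not independent and do not show the spread between libraries of a genotype.

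**Figure D1:**
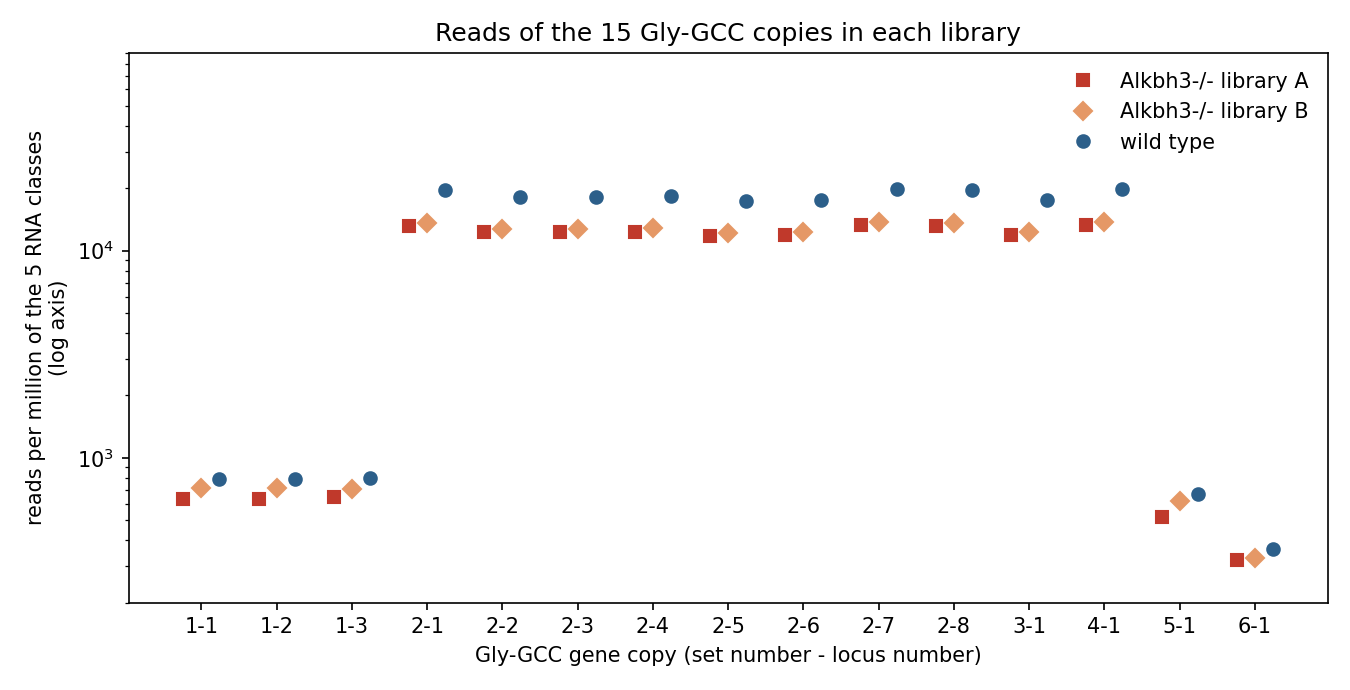
RPM (log axis) for each of the 15 Gly-GCC copies, with squares and diamonds for Alkbh3-/- libraries A and B and circles for wild type. The 10 copies of sets 2, 3 and 4 stand between 11750 and 19822 RPM and the other 5 below 801 RPM, and in every copy both Alkbh3-/- points lie below the wild type point.

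Gly-GCC-2-7 had the most wild type reads and stands for this upper level. It had 204367 and 289585 reads in the Alkbh3-/- libraries, against 299456 in wild type, or 13261 and 13679 RPM against 19822 RPM. Its log2 fold change was -0.55 (SE 0.07, edgeR adjusted p = 0.019 over 367 genes). Gly-GCC-4-1 had 13229 and 13696 RPM in the Alkbh3-/- libraries, against 19756 RPM in wild type, and Gly-GCC-2-1 had 13191 and 13653 RPM against 19671 RPM. All 10 copies of the upper level were called lower, with log2 fold changes from -0.55 to -0.53 and edgeR adjusted p from 0.019 to 0.021. They are not independent measurements, so these calls do not count as 10 results. Of all 367 tRNA genes 7.36% (27) were called lower, the 10 copies among them. Relative to the median of all genes, -0.15, the 10 copies stood at -0.40 to -0.38. With tRNA reads as library size they stood again at -0.40 to -0.38, which the nearly uniform shift fixes in advance. No copy was called higher, where 2.45% of all genes were called higher, and none had an unadjusted edgeR p under 0.05 in that direction. With TMM scaling the 10 copies had unadjusted p under 0.05 but no adjusted p below 0.11, and with DESeq2 none had an unadjusted p under 0.05, so both called 0 copies, beside 3.81% and 1.63% of all genes called lower.

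The 5 copies of the lower level did not pass the test. Gly-GCC-1-1 had 632 and 715 RPM in the Alkbh3-/- libraries, against 792 RPM in wild type, and its log2 fold change was -0.22 (SE 0.32). Gly-GCC-5-1 had 517 and 622 RPM in the Alkbh3-/- libraries, against 670 RPM in wild type (-0.21, SE 0.35). Gly-GCC-6-1 had 321 and 328 RPM, against 363 RPM in wild type (-0.16, SE 0.40). In RPM all 15 copies were below wild type in both Alkbh3-/- libraries, as were 47.4% of the 367 genes tested. The SE was 0.32 to 0.40 in the lower copies and 0.07 in the upper ones, and the difference between the 2 levels was not tested.

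The fragment tables list the reads of each copy by length in 2 end classes without names. They hold more reads than the gene counts, with 1.62 Gly-GCC fragment reads per gene count in both Alkbh3-/- libraries, against 1.64 in wild type, so levels from the 2 kinds of table are not set against each other. Nearly all Gly-GCC fragments were of the first class. The second class held 226 and 272 reads in the Alkbh3-/- libraries, against 274 in wild type, which is 0.00708% and 0.00597% of the Gly-GCC reads against 0.00584%. Among all other isoacceptors it held 1.03% and 1.04%, against 1.37% in wild type. None of its 6 tested Gly-GCC lengths was called by edgeR, and none had an unadjusted p under 0.05.

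Gly-GCC fragments centred on 31 nt, and this length fell in Alkbh3-/- epididymis. The 31-nt fragment of the first class had 1771167 and 2402497 reads in the Alkbh3-/- libraries, against 2995400 in wild type. It stood at 114925 and 113486 RPM in the Alkbh3-/- libraries, against 198278 RPM in wild type, and its log2 fold change was -0.80 (SE 0.11, edgeR adjusted p = 2.1e-10 over 572 fragments). In all, 1.05% of fragments were called lower, and the median over all fragments was -0.03. DESeq2 gave -0.71 (adjusted p = 0.31) and did not call it. It made up 55.5% (exact binomial 95% interval 55.4% to 55.6%) and 52.7% (52.7% to 52.8%) of the Gly-GCC fragment reads in the Alkbh3-/- libraries, against 63.8% (63.8% to 63.9%) in wild type. These intervals cover counting error only. The difference of the Alkbh3-/- mean from wild type was -9.68 percentage points (SD 1.95 over the 2 Alkbh3-/- libraries).

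The lengths on either side of the peak differed from it. The 30-nt fragment had 52415 and 58365 RPM in the Alkbh3-/- libraries, against 68299 RPM in wild type (log2 fold change -0.30, SE 0.14, edgeR adjusted p = 0.43). The 32-nt fragment had 15639 and 16104 RPM, against 23910 RPM in wild type (-0.59, SE 0.20, adjusted p = 0.12). At 28 and 29 nt the Alkbh3-/- libraries lay on both sides of wild type, with 4023 and 4725 RPM against 4482 RPM at 28 nt, and 4980 and 5458 RPM against 5091 RPM at 29 nt. The 33-nt fragment had 4537 and 5471 RPM, against 3891 RPM in wild type (0.36, SE 0.31), and the 35-nt fragment 1681 and 2187 RPM, against 1975 RPM (-0.03, SE 0.37). None of these 6 lengths passed the test.

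The balance between the 2 main lengths also differed between the Alkbh3-/- libraries and the wild type library, and not in Gly-GCC alone. There were 0.456 and 0.514 reads of 30 nt for each read of 31 nt in the Alkbh3-/- libraries, against 0.344 in wild type. This ratio was above wild type in both Alkbh3-/- libraries in all 15 copies, which are not independent measurements. Among 17 isoacceptors with at least 100 reads of each length in each library it was above wild type in both in 47.1%, and below in both in 17.6%. Together, 30 and 31 nt made up 80.8% and 79.9% of the Gly-GCC fragments in the Alkbh3-/- libraries, against 85.8% in wild type. The mean fragment length was 31.4 and 31.3 nt, against 30.96 nt in wild type, while the median was 31 nt in every library.

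**Figure D2:**
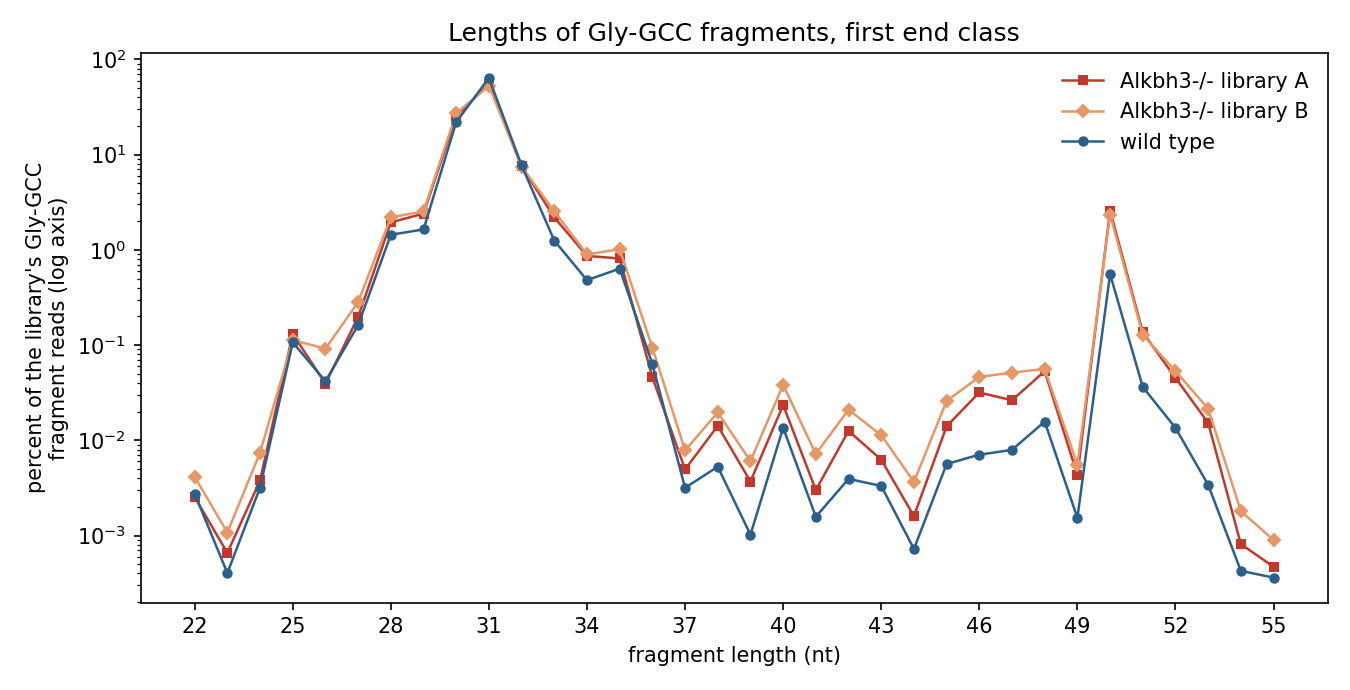
Percent of each library's Gly-GCC fragment reads (log axis) at each length from 22 to 55 nt in the first end class, with squares and diamonds for Alkbh3-/- libraries A and B and circles for wild type. All 3 profiles peak at 31 nt and again at 50 nt, and at 50 nt the Alkbh3-/- libraries stand at 2.59% and 2.34% against 0.555% in wild type.

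A second, narrow peak at 50 nt was higher in Alkbh3-/- epididymis. It held 82584 and 106752 reads in the Alkbh3-/- libraries, against 26053 in wild type, or 5359 and 5043 RPM against 1725 RPM. The log2 fold change was 1.59 (SE 0.34, edgeR adjusted p = 0.00048), where 1.22% of all fragments were called higher. The share of Gly-GCC reads at 50 nt was 2.59% (95% interval 2.57% to 2.61%) and 2.34% (2.33% to 2.36%) in the Alkbh3-/- libraries, against 0.555% (0.548% to 0.562%) in wild type. The difference of the Alkbh3-/- mean from wild type was 1.91 percentage points (SD 0.173 over the 2 Alkbh3-/- libraries). The peak was 1 nt wide. At 49 nt there were 138 and 252 reads in the Alkbh3-/- libraries, against 72 in wild type, and at 51 nt 4352 and 5832 reads, against 1707. The length of 50 nt is also the upper end of the range cut from the gel, and the part of the size selection in this difference was not tested.

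The lengths around 50 nt differed in the same direction, with fewer reads. Of 19 first-class lengths from 37 to 55 nt that were tested, 18 were above wild type in both Alkbh3-/- libraries. Of the 158 fragments of these lengths from all isoacceptors, Gly-GCC included, 31.6% were above wild type in both and 49.4% below in both. The median log2 fold change of the 19 was 1.29. Only 50 nt passed the adjusted threshold. While 10 had an unadjusted edgeR p of 0.05 or less, the share of all fragments at that level was not counted, so this number has no background beside it. The 46-nt fragment had 65.9 and 99.8 RPM in the Alkbh3-/- libraries, against 21.98 RPM in wild type (1.92, SE 0.64, edgeR adjusted p = 0.10). The 53-nt fragment had 31.6 and 46.2 RPM, against 10.6 RPM in wild type (1.89, SE 0.66, adjusted p = 0.12). TMM scaling and DESeq2 each called 10 of these lengths higher, at 39, 42, 45 to 48 and 50 to 53 nt, beside 4.72% and 4.55% of all fragments called higher.

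**Figure D3:**
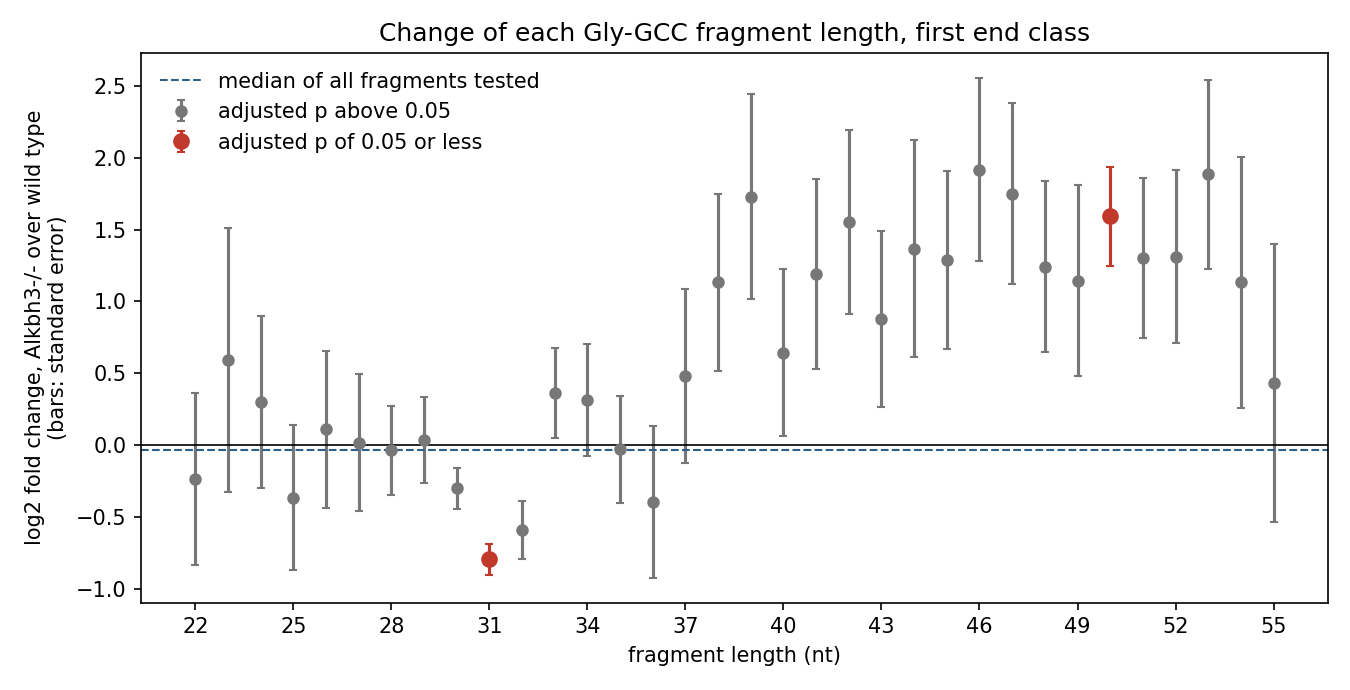
Log2 fold change of Alkbh3-/- over wild type (edgeR, bars are standard errors) for each tested Gly-GCC length of the first end class from 22 to 55 nt, with the median of all tested fragments as a dashed line. The 31-nt fragment at -0.80 and the 50-nt fragment at 1.59 passed the adjusted threshold of 0.05, and every length from 37 to 55 nt lies above 0.

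Both 31 nt and 50 nt were also set against the other lengths of Gly-GCC. For each read of any other Gly-GCC length there were 1.25 and 1.12 reads of 31 nt in the Alkbh3-/- libraries, against 1.76 in wild type, a mean log2 difference of -0.58 (SD 0.11, n = 2, no test). For 50 nt the same ratio was 0.0266 and 0.0240, against 0.00558 in wild type (2.18, SD 0.10). The fit was repeated with all Gly-GCC fragment reads as library size. The 31-nt reads are themselves 52.7% to 63.8% of that sum, so it holds their own fold change near 0 (-0.24, SE 0.13, edgeR adjusted p = 0.29) and raises those of the other lengths. On that scale 50 nt stood at 2.15 (SE 0.31, edgeR adjusted p = 1.8e-09) and 33 nt at 0.92 (SE 0.28, adjusted p = 0.026). In all, 11 Gly-GCC lengths were called higher and 0 lower, beside 6.12% and 0.35% of all fragments, with a median over all fragments of 0.52.

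The main length differed between copies and was the same in all 3 libraries. The 10 copies of the upper level and the 3 of set 1 peaked at 31 nt. In the upper level the 31-nt share was 54.8% to 56.6% in library A and 52.1% to 53.9% in library B, against 63.1% to 64.9% in wild type. Copies are not independent measurements, so these ranges do not show the spread between libraries of a genotype. In set 1 it was 56.2% to 57.2% and 54.0% to 54.7% in the Alkbh3-/- libraries, against 61.9% to 62.2% in wild type.

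Gly-GCC-5-1 was read mainly as a 28-nt fragment and Gly-GCC-6-1 as a 29-nt fragment, in every library. The 28-nt fragment made up 72.9% and 73.9% of the Gly-GCC-5-1 reads in the Alkbh3-/- libraries, against 68.6% in wild type, while the upper-level copies had 1.08% to 1.95% at this length over the 3 libraries. The 29-nt fragment made up 67.1% and 64.0% of the Gly-GCC-6-1 reads, against 59.9% in wild type. Gly-GCC-5-1 had 0.404% and 0.468% of the Gly-GCC gene counts in the Alkbh3-/- libraries, against 0.353% in wild type. It nevertheless held 16.2% and 16.98% of all 28-nt Gly-GCC reads in the Alkbh3-/- libraries, against 17.6% in wild type. Gly-GCC-6-1 held 7.38% and 6.56% of all 29-nt reads, against 7.24% in wild type. At 27 nt Gly-GCC-5-1 had 526 and 1093 reads in the Alkbh3-/- libraries, against 620 in wild type. The upper-level copy Gly-GCC-3-1 had 533 and 1077, against 618. At 29 nt Gly-GCC-5-1 had 96 and 135 reads, against 81, and Gly-GCC-3-1 had 6895 and 10327, against 6875. The lengths listed for a copy may include reads that match other copies as well, and their part was not tested.

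In Gly-GCC-5-1 and Gly-GCC-6-1 the difference at the main length was smaller than at 31 nt. The 28-nt fragment of Gly-GCC-5-1 had 654 and 802 RPM in the Alkbh3-/- libraries, against 790 RPM in wild type, and its 31-nt fragment 92.9 and 92.0 RPM, against 165 RPM. The 29-nt fragment of Gly-GCC-6-1 had 368 and 358 RPM, against 369 RPM in wild type, and its 31-nt fragment 82.3 and 84.6 RPM, against 136 RPM. The log2 fold changes at the main length were -0.12 (SE 0.30) for Gly-GCC-5-1 and -0.02 (SE 0.37) for Gly-GCC-6-1. At 31 nt they were -0.84 (SE 0.44) for Gly-GCC-5-1 and -0.70 (SE 0.45) for Gly-GCC-6-1, and none of the 4 passed the threshold (at 31 nt, edgeR adjusted p = 0.35 and 0.48 over 1994 fragments kept apart by gene). The share of 31-nt reads was below wild type in both Alkbh3-/- libraries in all 15 copies, which are not independent measurements. Among 24 isoacceptors with at least 1000 fragment reads in each library, Gly-GCC included, it was below wild type in both in 45.8%.

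**Figure D4:**
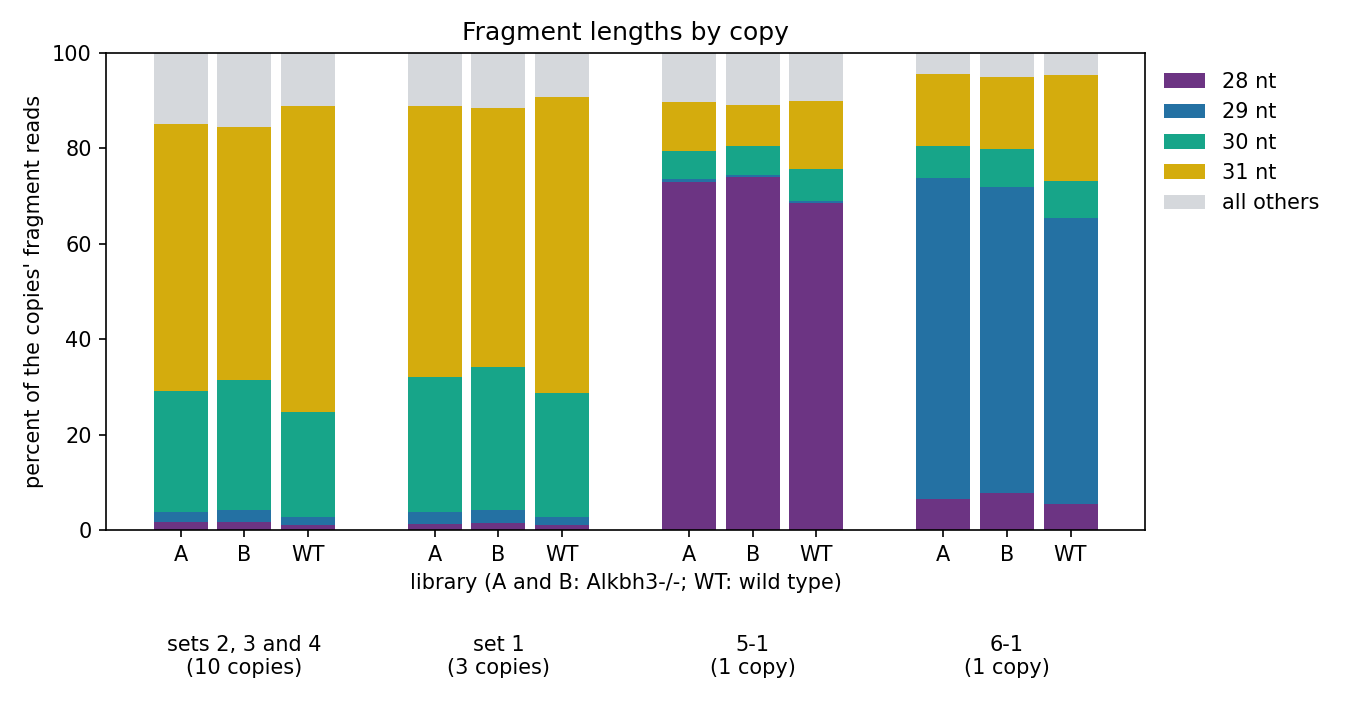
Percent of fragment reads at 28, 29, 30, 31 nt and all other lengths, stacked to 100%, for 4 groups of Gly-GCC copies in Alkbh3-/- libraries A and B and wild type. The copies of sets 1 to 4 are mainly 31 nt, Gly-GCC-5-1 is mainly 28 nt (72.9% and 73.9% against 68.6% in wild type) and Gly-GCC-6-1 mainly 29 nt (67.1% and 64.0% against 59.9%).

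With fragments kept apart by copy, all 23 calls of this fit lay in the upper level. The 31-nt fragment was called lower in all 10 of its copies (log2 fold changes -0.81 to -0.79) and the 50-nt fragment higher in all 10 (1.55 to 1.62). The copies are not independent measurements, so 10 calls at a length do not count as 10 results. Of all 1994 such fragments 0.853% (17) were called lower and 2.41% (48) higher, and these include the 10 and 13 Gly-GCC calls. At 46, 47 and 53 nt, 1 upper-level copy each was also called higher, and no fragment of the other 5 copies was called. At 50 nt the set 1 copies had 30, 35 and 40 wild type reads, against 2910 in Gly-GCC-2-7. Their log2 fold changes at this length were 1.52 (SE 0.64), 1.23 (SE 0.62) and 1.19 (SE 0.61). The 10 calls at 31 nt were lost with DESeq2 and with Gly-GCC reads as library size, and were kept with TMM and with tRNA reads as library size. The 10 calls at 50 nt were kept in all 4 of these settings.

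Copies of set 1 were called higher in those other settings at 1 or more lengths from 38 to 53 nt. TMM called 2 of their fragments (Gly-GCC-1-2 at 52 and 53 nt), DESeq2 1 (Gly-GCC-1-2 at 52 nt), tRNA reads as library size 4 and Gly-GCC reads as library size 9. Of all fragments kept apart by gene, 4.91% were called higher and 2.41% lower with TMM, 4.01% and 0.351% with DESeq2, 6.67% and 0.903% with tRNA reads, and 13.5% and 0.201% with Gly-GCC reads. The 50-nt fragment made up 2.52% to 2.73% of reads in library A and 2.28% to 2.48% in library B in the upper level, against 0.545% to 0.583% in wild type.

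Among its long fragments set 1 had another balance than the upper level. Lengths of 37 nt or more made up 2.04% to 2.17% of its reads in library A and 2.72% to 2.88% in library B, against 0.851% to 0.856% in wild type. In the upper level they made up 2.83% to 3.22% and 2.69% to 3.06%, against 0.634% to 0.726% in wild type, so set 1 was lower in library A, overlapped in library B and was higher in wild type. At 50 nt the 3 copies together had 12.8 and 20.8 RPM in the Alkbh3-/- libraries, against 6.95 RPM in wild type. At 52 nt they had 16.9 and 21.1 RPM, against 6.62 RPM in wild type, so that 52 nt was about as frequent as 50 nt in set 1. In the upper level, 52 nt had 76.8 and 93.7 RPM, against 35.4 RPM, beside 5346 and 5022 RPM at 50 nt, against 1718 RPM in wild type. Set 1 thus held 18.0% and 18.4% of all 52-nt Gly-GCC reads in the Alkbh3-/- libraries, against 15.7% in wild type, with 1.49% and 1.61% of the gene counts, against 1.26%. For Gly-GCC-1-2 at 52 nt the log2 fold change was 1.78 (SE 0.65, edgeR adjusted p = 0.11), a difference that passed with TMM (1.78, adjusted p = 0.035), DESeq2 (1.78, adjusted p = 0.049), tRNA reads (2.06, adjusted p = 0.014) and Gly-GCC reads (2.33, adjusted p = 0.0033). At 50 nt Gly-GCC-5-1 had 1 read in library B and none in the other 2 libraries, and Gly-GCC-6-1 had none in any.

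Among all tRNAs the 50-nt reads came mainly from Gly-GCC, which supplied 96.3% and 94.8% of them in the Alkbh3-/- libraries, against 81.2% in wild type. The other isoacceptors together had 206 and 274 RPM at 50 nt in the Alkbh3-/- libraries, against 399 RPM in wild type, below wild type in both. Of the 24 isoacceptors with at least 1000 fragment reads in each library, the 50-nt share was above wild type in both Alkbh3-/- libraries in 7 (29.2%) and below in both in 11 (45.8%). Gly-TCC, another glycine tRNA, had 6.89% and 7.43% of its reads at 50 nt in the Alkbh3-/- libraries, against 20.2% in wild type. Glu-TTC had 0.328% and 0.387%, against 0.0764% in wild type.

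**Figure D5:**
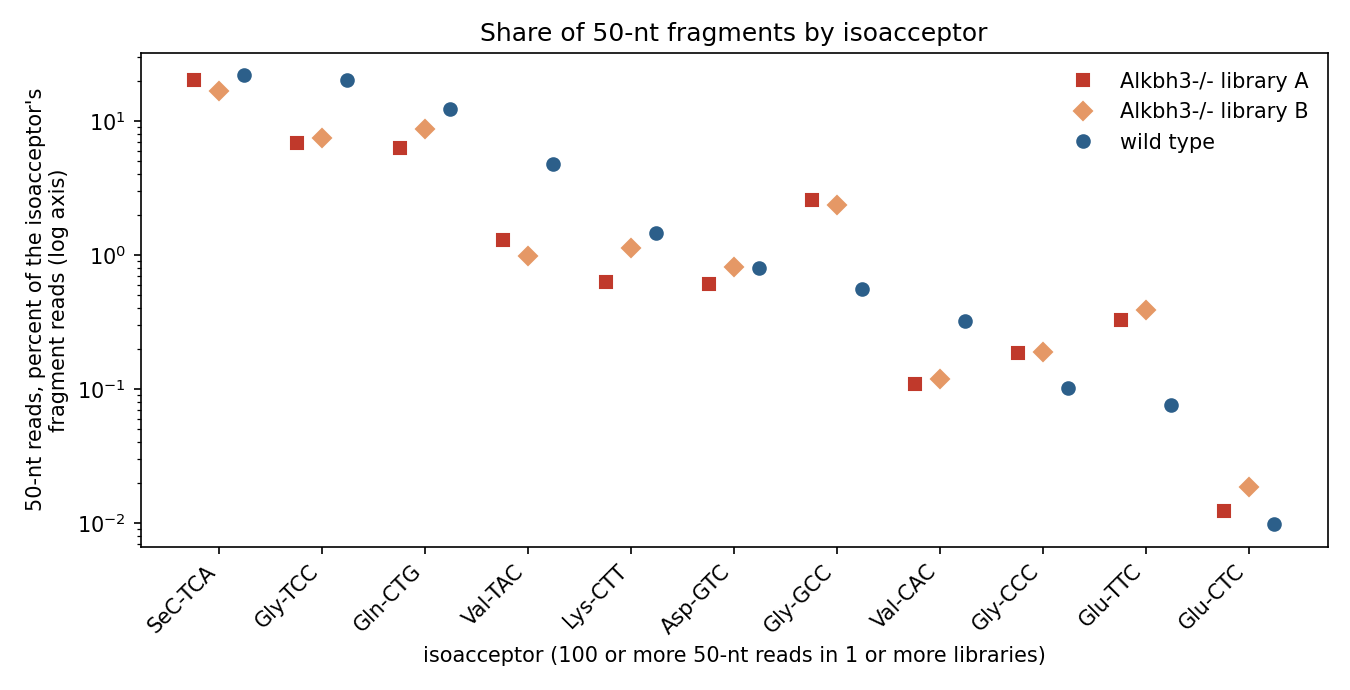
Percent of an isoacceptor's fragment reads that are 50 nt long (log axis), for the isoacceptors with at least 100 such reads in 1 or more libraries, with squares and diamonds for Alkbh3-/- libraries A and B and circles for wild type. Gly-GCC, Gly-CCC, Glu-TTC and Glu-CTC lie above wild type in both Alkbh3-/- libraries, and Gly-TCC (6.89% and 7.43% against 20.2%) is among those that lie below.

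The isoacceptor with the most similar first-class lengths was Gly-CCC, whose profile, averaged over the 3 libraries, differed from that of Gly-GCC by 4.37% of reads (the summed absolute difference of shares, divided by 2). Pro-AGG followed at 18.4% and Pro-TGG at 25.9%, over 3 libraries each. Most Gly-CCC reads lay on Gly-CCC-5-1, which had 188629 and 265960 gene counts in the Alkbh3-/- libraries, against 291433 in wild type, in each library within the range of the upper Gly-GCC copies. Its 31-nt share was 60.6% and 57.9% in the Alkbh3-/- libraries, against 66.8% in wild type, close to the upper copies. It had hardly any longer reads. Fragments of 34 nt or more made up 0.0422% and 0.0237% of its reads, against 0.0229% in wild type, and 4.77% and 4.92% in the upper Gly-GCC copies, against 1.88% in wild type. No read of Gly-CCC-5-1 was longer than 39 nt in any library. No source here says whether reads that match both Gly-GCC and Gly-CCC genes were counted in both, and with both isoacceptors pooled the log2 fold change was -0.55 (edgeR adjusted p = 4.9e-06).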

How the data were processed

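Tables of read counts for 5 RNA classes and for 446 tRNA genes were deposited by the authors as raw counts, with 1 table per library that gives each gene's coordinates and its read counts by fragment length in 2 unnamed end classes, per the file headers. RNA (100 µg) was run on a 15% gel and the range of 15 to 50 nt was cut out, per the labels' protocols. The name cutadapt and the build mm10 stand in the submitters' processing notes without roles. The sources used here name no aligner or tRNA annotation, nor how multiply matching reads were treated. Of the columns of the fragment tables, 6 that give class sums were not used. Modified bases in tRNA can stop reverse transcription, so counts may favour unmodified fragments. Tables hold 3340218 and 4766609 tRNA gene counts in Alkbh3-/- libraries A and B, and 4014098 in wild type.

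Members, lists and tests were chosen with earlier results of these data known. Counts were summed by isoacceptor, by gene and by isoacceptor, length and end class. Each table was fitted whole with edgeR 4.0.16 (quasi-likelihood, R 4.3.3) on the sum of the 5 RNA classes as library size, with no composition factor. Features needed 10 reads in all (fragments, 10 in each library), p-values were adjusted by Benjamini and Hochberg, and the threshold was 0.05. The fits left 1 residual degree of freedom and were repeated with DESeq2 1.42.0 and the other settings given at the end. They were also run on simulated counts whose features were independent and had 1 fixed amount of spread. The real copies are not independent, so that run cannot vouch for the calls given here. Libraries A and B differed far beyond sampling noise (chi-square of 240 per degree of freedom over Gly-GCC fragments), so they were not merged as 1 library. That they are replicates rests on the labels. Copies named are the 3 with the most and the 3 with the fewest wild type reads; fragments named hold at least 1% of Gly-GCC reads in any library or passed the threshold, and the others were named after their values were seen. No sequences were used, so copies were grouped by the numbers in their names. Gene context came from GENCODE M21 and RefSeq GRCm38.p6, the assembly of mm10.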

Additional observations from a re-analysis of the deposited data

How the results depend on the processing

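The Gly-GCC isoacceptor kept its direction in 10 of 10 alternative settings and its call in 7 of the 8 that have a test, the exception being DESeq2 (-0.22), and ranged from -0.57 to -0.51 when 1 Alkbh3-/- library was left out. The count of copies called lower, 10, was 0 with TMM and 0 with DESeq2 and 10 with the other 5. Copies called higher stayed at 0 in 7 of 7. Fragments called higher numbered 1, but 10 with TMM, 5 with tRNA reads as library size, 10 with DESeq2 and 11 with Gly-GCC reads as library size, and fragments called lower 1, but 0 with DESeq2 and 0 with Gly-GCC reads as library size. The 31-nt fragment was lower in all 9 settings, -0.71 with DESeq2, and the 50-nt fragment was called higher in all 7 with a test. Fragments near 0 turned with the scale: 28 nt to 0.25 with tRNA reads, 0.034 with DESeq2 and 0.52 with Gly-GCC reads, 35 nt to 0.25, 0.032 and 0.52, and 30 nt to 0.25 with Gly-GCC reads. Without 1 library these ranged from -0.16 to 0.076 at 28 nt, -0.032 to 0.10 at 29 nt and -0.23 to 0.15 at 35 nt. The cause was not tested. Other denominators, the copy with the most fragment reads alone and the fragment tables moved the 31-nt share difference, the 50-nt share difference and the ratio to Glu-CTC by less than the SD between Alkbh3-/- libraries, wherever each was tried. Without 1 library they ranged from -11.1 to -8.31 points, 1.79 to 2.03 points and 0.376 to 0.383, which with 2 libraries are the values of the single libraries and no check of stability. Leaving out a library leaves 1 against 1, so no calls were counted there. The older quasi-likelihood method and the fragments kept apart by copy were added after seeing the data. Apart by copy, 23 Gly-GCC fragments were called, 13 of them higher. Those called higher, over both levels, were 36 and 2 (upper and set 1 copies) with TMM, 56 and 4 with tRNA reads, 30 and 1 with DESeq2 and 102 and 9 with Gly-GCC reads, and those called lower, 10, were 20, 10, 0 and 0. No paired analysis was possible because wild type has 1 library and shares no replicate pairs with Alkbh3-/-.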

Other observations

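Within the upper level of Gly-GCC copies, counts split by the strand of the gene. The 4 copies on the plus strand had 202460 to 204367 reads in Alkbh3-/- library A, 287106 to 289937 in library B and 296440 to 299456 in wild type. The 6 copies on the minus strand had 181078 to 190490 reads in library A, 258399 to 270954 in library B and 262347 to 277793 in wild type, with no overlap in any library. The share of 51-nt fragments also split, at 0.221% to 0.231% and 0.201% to 0.227% on the minus strand in the Alkbh3-/- libraries, against 0.0528% to 0.0640% in wild type, and 0.0179% to 0.0273% and 0.0211% to 0.0227% on the plus strand, against 0.00761% to 0.0102% in wild type. The log2 fold changes were close on both strands, -0.55 for the plus strand and -0.54 to -0.53 for the minus strand. Of 5 sets of same-numbered copies with at least 2 genes on each strand and a wild type median of 1000 reads or more, 4 showed counts with no overlap between strands in all 3 libraries. The plus strand was higher in Glu-CTC-1, Gly-GCC-2 and His-GTG-2, and the minus strand in Lys-CTT-3. In His-GTG-2 the mean of the plus-strand copies was 1.75 and 1.72 times that of the minus-strand copies in the Alkbh3-/- libraries, against 1.72 times in wild type.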
